A study of Mus musculus with 12 samples.

Results

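Tuft cells are rare chemosensory cells of the intestinal epithelium. They taste luminal metabolites with a signalling cascade shared with taste buds, in which the transcription factor Pou2f3 sets the lineage and the cation channel Trpm5 turns a calcium signal into depolarisation, and they answer parasites by releasing the cytokine Il25 and lipid mediators made by cyclooxygenase and lipoxygenase enzymes. The genes described here are 9 markers of this cell type, namely Dclk1, Pou2f3, Trpm5, Il25, Alox5, Ptgs1, Gfi1b, Avil and Sh2d6, found by symbol in the 2 deposited count tables. Of these 9, 8 were found among the 18929 genes listed in either table, 7 of them in both. Gfi1b was listed only in the table for Hdac1, and Il25 was not analysed here.

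The libraries are bulk RNA-Seq of murine jejunal enteroids, three-dimensional epithelial cultures grown from isolated crypts, collected on day 5 of culture in ENR medium (EGF, noggin and R-spondin). There were 4 control (villin-Cre) libraries, called wild-type in the methods, 4 Hdac1-deficient libraries from floxed Hdac1 mice and 4 Hdac2-deficient libraries from floxed Hdac2 mice, in which the villin promoter drives Cre recombinase in the intestinal epithelium of a mixed C57BL/6J, 129SV and CD1 background. Hdac1 and Hdac2 encode class I lysine deacetylases, which remove acetyl groups from histones and other proteins. The methods name a single source mouse per genotype. Whether the 4 libraries of a group stand for 4 animals is therefore not known, p-values measure the spread between these libraries, and a difference between genotypes cannot be told apart from a difference between the source mice.

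The depth was 20693200 to 30658628 gene-assigned reads per library. The Hdac1 transcript was at 90.6 ± 2.76 CPM (counts relative to the TMM-scaled library size, SD, n = 4) in control and 4.23 ± 0.834 CPM in Hdac1-deficient enteroids, and the Hdac2 transcript was at 137.0 ± 3.85 CPM in control and 75.9 ± 2.89 CPM in Hdac2-deficient enteroids. Xist, the RNA that coats an inactive X chromosome, was at 1.57 ± 0.174 CPM in the control libraries. It was at 917.2 ± 130.1 CPM where Hdac1 and 584.2 ± 83.0 CPM where Hdac2 was deleted, so the lines differed in this respect as well. A difference in sex between the source mice cannot be told apart from the genotype in the comparisons with control. A count of 3, taken as the limit that a count of 0 allows, corresponded to 0.0971 to 0.145 CPM and covers counting error only. Stem cell markers (4 genes) fell together, from a summed median of 3375 CPM in control to medians of 2004 and 1595 CPM in the Hdac1- and Hdac2-deficient libraries, while enterocyte markers (6 genes) rose from 6729 CPM to 13239 and 11025 CPM, with all 6 passing the test in both mutants. Paneth cell markers (6 genes) went from a summed median of 2292 CPM to 3245 and 3420 CPM, with 2 higher and 1 lower at adjusted p ≤ 0.05 in Hdac1-deficient and 5 higher in Hdac2-deficient enteroids. Goblet cell markers (6 genes) went from 1609 CPM to 1603 and 2525 CPM, with 3 higher and 1 lower in Hdac1-deficient and 5 higher in Hdac2-deficient enteroids. Enteroendocrine markers (7 genes) went from 248 CPM to 299 and 295 CPM, with 5 higher and 1 lower, and then 4 higher and 2 lower. Of all genes tested, 32.7% were higher and 31.9% lower at that threshold with Hdac1 deleted. With Hdac2 deleted, 31.4% were higher and 30.9% lower. Tuft markers together amounted to a few CPM, as detailed below. In bulk libraries, fewer tuft cells and less RNA per tuft cell cannot be told apart, and the part of these shifts in the values below was not tested.

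The start regions of Trpm5, Avil and Dclk1, 3 of the 4 markers that differed between the mutants, are shown first, as the 250 bases before the annotated transcription start in RefSeq (GRCm38.p6), written 5′ to 3′ on the strand of the gene. Pou2f3 belongs to the POU family, whose members bind the octamer ATGCAAAT. Capitals mark its first 7 letters, ATGCAAA, or their reverse complement TTTGCAT, searched on both strands, so that any full octamer is also counted among the matches to the 7 letters. Dclk1 is shown with 2 windows because it has more than 1 annotated start, and the gene counts do not separate the transcripts from them.
Trpm5, chr7:143094643-143094892, minus strand: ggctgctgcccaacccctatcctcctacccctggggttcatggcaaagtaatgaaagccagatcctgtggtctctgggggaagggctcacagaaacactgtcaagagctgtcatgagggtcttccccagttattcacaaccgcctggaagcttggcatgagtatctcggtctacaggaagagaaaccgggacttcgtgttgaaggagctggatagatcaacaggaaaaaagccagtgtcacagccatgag
Avil, chr10:127000459-127000708, plus strand: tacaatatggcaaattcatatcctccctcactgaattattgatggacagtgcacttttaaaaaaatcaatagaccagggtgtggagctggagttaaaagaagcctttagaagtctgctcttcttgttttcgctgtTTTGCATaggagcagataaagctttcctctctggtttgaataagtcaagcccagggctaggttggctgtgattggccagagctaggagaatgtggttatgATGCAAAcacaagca
Dclk1, upstream start, chr3:55242114-55242363, plus strand: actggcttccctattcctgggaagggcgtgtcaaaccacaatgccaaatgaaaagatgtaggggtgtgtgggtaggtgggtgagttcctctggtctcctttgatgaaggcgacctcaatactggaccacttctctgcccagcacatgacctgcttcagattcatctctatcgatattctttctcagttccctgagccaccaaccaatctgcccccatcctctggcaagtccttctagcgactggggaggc
Dclk1, downstream start, chr3:55461478-55461727, plus strand: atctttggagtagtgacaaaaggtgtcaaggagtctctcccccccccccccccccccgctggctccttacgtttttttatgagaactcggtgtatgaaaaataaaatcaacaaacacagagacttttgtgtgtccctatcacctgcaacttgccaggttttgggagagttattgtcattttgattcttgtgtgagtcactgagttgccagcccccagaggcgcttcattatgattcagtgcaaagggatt

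The table of start regions holds 8 windows for 7 of the markers, and none for Pou2f3 or Il25. The full octamer was in 0 of these 8 windows and in 526 (1.60%) of the 32851 windows of the same length over all genes. The 7 letters were in 1 of the 8, that of Avil, and in 1355 (4.12%) of all windows. Avil held 2 matches, the reverse complement beginning 115 bases and the forward letters beginning 15 bases before the start. These matches describe letters, not binding.

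Pou2f3 (ENSMUSG00000032015, chromosome 9 of GRCm38 from 43123939 to 43210369, minus strand) encodes the POU-domain factor without which tuft cells do not form. It was counted at 2.25, 1.94, 1.99 and 2.05 CPM in the 4 control libraries, at 2.74, 3.24, 3.02 and 1.56 CPM in the Hdac1-deficient libraries and at 1.18, 1.52, 1.21 and 1.34 CPM in the Hdac2-deficient libraries. All 4 Hdac2-deficient libraries were below all 4 control libraries, while 3 of the Hdac1-deficient libraries were above all of the control libraries and replicate 4 was below them. Behind these levels are 49 to 67 reads per control library, 43 to 100 per Hdac1-deficient library and 25 to 39 per Hdac2-deficient library. With Hdac2 deleted, Pou2f3 fell by 0.63 on the log2 scale (standard error 0.16, adjusted p = 0.0020 from edgeR's quasi-likelihood test). With Hdac1 deleted, the value of 0.38 on the same scale (standard error 0.18, adjusted p = 0.069) did not pass the threshold of 0.05. Without Hdac1-deficient replicate 4 it was 0.56 with an adjusted p of 0.0015, so that library decides the call.

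Trpm5 (ENSMUSG00000009246, chromosome 7 from 143069153 to 143094642, minus strand) encodes the calcium-activated channel at the end of the taste-type cascade. Its level was 2.01, 2.19, 2.42 and 2.09 CPM in the control libraries, 2.06, 1.88, 2.23 and 1.99 CPM in the Hdac1-deficient libraries and 1.18, 1.29, 1.11 and 1.04 CPM in the Hdac2-deficient libraries. The 4 Hdac2-deficient libraries lay below the other 8, and the control and Hdac1-deficient libraries overlapped. With Hdac2 deleted, Trpm5 fell by 0.90 on the log2 scale (standard error 0.16, adjusted p = 6.8e-05), to 0.537 of the control level with a 95% interval from 0.424 to 0.680. With each of the 8 libraries left out in turn this value stayed between -0.96 and -0.84. In Hdac1-deficient enteroids the log2 fold change was -0.08, with a 95% interval from -0.37 to 0.21 (adjusted p = 0.62). Trpm5 shares 220 of its 6398 exonic bases with Tssc4 on the opposite strand, and whether the counting used strand is not given in the sources used here, so reads in that stretch cannot be assigned. Tssc4 itself, at 19.2 ± 1.75 CPM in the control libraries, had a log2 fold change of 0.03 with Hdac1 deleted and -0.03 with Hdac2 deleted (adjusted p = 0.72 and 0.70).

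Avil (ENSMUSG00000025432, chromosome 10 from 127000709 to 127020994, plus strand) encodes advillin, an actin-binding protein of the villin family found in the apical tuft. It was at 0.537, 0.919, 0.730 and 0.626 CPM in the control libraries, 1.28, 1.30, 1.47 and 1.20 CPM in the Hdac1-deficient libraries and 0.811, 1.09, 1.06 and 0.564 CPM in the Hdac2-deficient libraries. All 4 Hdac1-deficient libraries were above the other 8, whose groups overlapped. Avil rose in Hdac1-deficient enteroids by 0.91 on the log2 scale (standard error 0.21, adjusted p = 0.00069), which is 1.88-fold with a 95% interval from 1.39 to 2.53. This passed the threshold of 2-fold only without control replicate 2, where the log2 fold change was 1.06. In Hdac2-deficient enteroids the log2 fold change was 0.33, with a 95% interval from -0.20 to 0.87 (adjusted p = 0.27). Avil shares 165 of its 3398 exonic bases with Tsfm on the opposite strand. Tsfm was counted at 49.9 ± 0.618 CPM in the control libraries, well above Avil. It fell by 0.10 with Hdac1 deleted and 0.21 with Hdac2 deleted on the log2 scale (adjusted p = 0.039 and 4.9e-05). The part of reads from the shared stretch in the Avil values was not tested.

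Dclk1 (ENSMUSG00000027797, chromosome 3 from 55242364 to 55539068, plus strand) encodes a microtubule-associated kinase that marks tuft cells in the mouse intestine and is also expressed in neurons. It had 21, 41, 34 and 22 reads in the control libraries, 40, 43, 29 and 23 in the Hdac1-deficient libraries and 18, 21, 13 and 17 in the Hdac2-deficient libraries. The mean levels were 1.05 ± 0.318, 1.17 ± 0.327 and 0.713 ± 0.0849 CPM. The control libraries spread over both mutants, whereas the 2 mutant groups did not overlap each other. The log2 fold change was -0.54 in Hdac2-deficient enteroids (standard error 0.25, adjusted p = 0.064) and 0.17 in Hdac1-deficient enteroids (standard error 0.24, adjusted p = 0.56), and neither passed. Without control replicate 1, the lowest control library, the value in Hdac2-deficient enteroids was -0.70 with an adjusted p of 0.015. Of the 6 neuronal markers, 5 were listed and their summed level was 1.39 to 1.84 CPM in the control libraries, 1.05 to 2.00 CPM in the Hdac1-deficient libraries and 2.74 to 3.73 CPM in the Hdac2-deficient libraries, and Dcx, a neuronal relative of Dclk1, was not listed. Map2 alone went from 0.412 CPM in control to 1.87 CPM in Hdac2-deficient enteroids, where Dclk1 was lowest, and its part in the Dclk1 values was not tested. Dclk1 shares 27 and 87 of its 15296 exonic bases with Gm21954 and Gm42609 on the opposite strand.

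**Figure D1:**
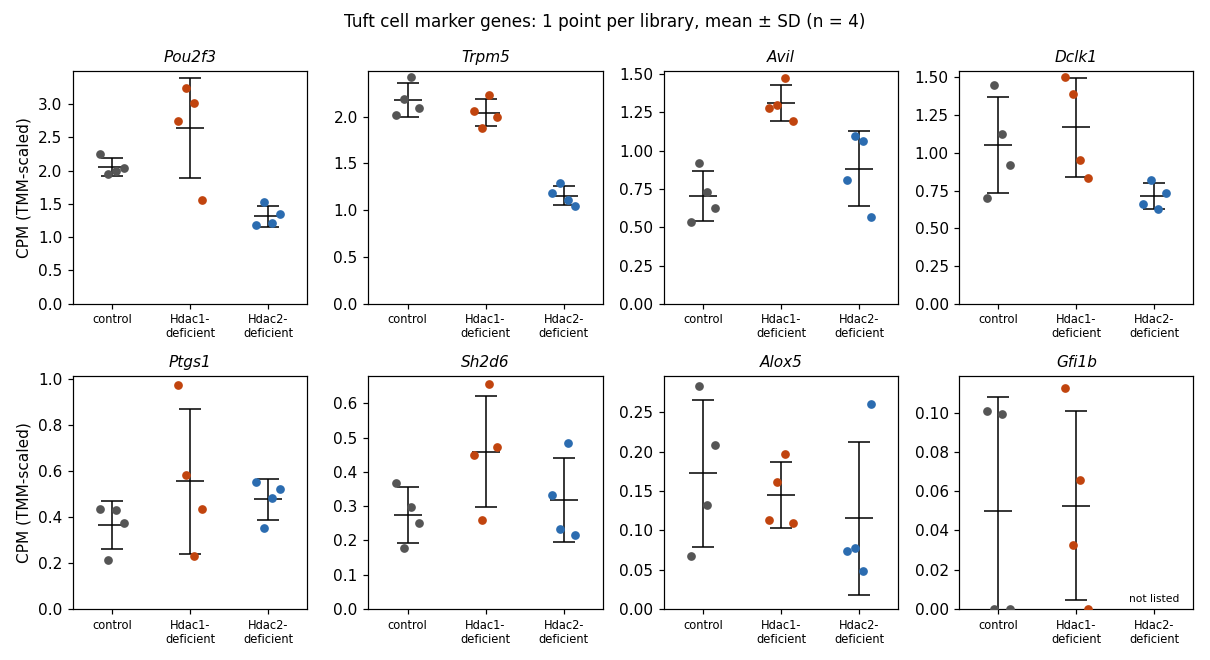
Level of the 8 listed tuft cell markers in CPM (vertical axes, starting at 0 and set separately for each gene) in control, Hdac1-deficient and Hdac2-deficient enteroids, with 1 point per library and bars for the mean ± SD (n = 4). The Hdac2-deficient points sit below all control points for Pou2f3 and Trpm5, and the Hdac1-deficient points sit above all control points for Avil. Gfi1b is not listed for Hdac2-deficient enteroids.

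The remaining markers were counted at lower levels. Ptgs1 (ENSMUSG00000047250, chromosome 2 from 36230426 to 36252272, plus strand) encodes cyclooxygenase 1, which makes the precursor of prostaglandins and is constitutively expressed in tuft cells. It had 13, 6, 13 and 9 reads in control, 26, 18, 7 and 12 in Hdac1-deficient and 15, 9, 10 and 12 in Hdac2-deficient libraries, and the 3 groups overlapped. The log2 fold changes were 0.59 (standard error 0.38, adjusted p = 0.18) and 0.39 (standard error 0.32, adjusted p = 0.29) in Hdac1- and Hdac2-deficient enteroids. Without Hdac1-deficient replicate 3, which had 7 reads, the former was 0.86 with an adjusted p of 0.038. Ptgs1 shares 148 of its 3884 exonic bases with Gm43621 on the opposite strand.

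Sh2d6 (ENSMUSG00000052631, chromosome 6 from 72513641 to 72521707, minus strand) encodes an SH2-domain protein enriched in tuft cells. It had 11, 5, 9 and 6 reads in control, 12, 8, 20 and 13 in Hdac1-deficient and 9, 6, 10 and 5 in Hdac2-deficient libraries. Sh2d6 passed the filter on low counts in the fit with the Hdac1-deficient libraries, where the groups overlapped and the value of 0.74 on the log2 scale did not pass (standard error 0.35, adjusted p = 0.070). Without control replicate 1 it was 0.92 (adjusted p = 0.047), and without Hdac1-deficient replicate 2 it was 0.95 (adjusted p = 0.021). It was below the filter in the fit with the Hdac2-deficient libraries, where an exact two-sided permutation test on CPM gave p = 0.6 (n = 4 per group).

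Alox5 (ENSMUSG00000025701, chromosome 6 from 116410077 to 116461178, minus strand) encodes 5-lipoxygenase, the first enzyme of leukotriene synthesis. It had 2, 8, 4 and 5 reads in control, 3, 5, 6 and 3 in Hdac1-deficient and 2, 2, 1 and 6 in Hdac2-deficient libraries, and was below the filter in each fit. Exact two-sided permutation tests on CPM gave p = 0.6 against Hdac1-deficient and p = 0.371 against Hdac2-deficient libraries (n = 4 per group, smallest possible p = 0.0286). Gfi1b (ENSMUSG00000026815, chromosome 2 from 28609450 to 28621982, minus strand), a zinc-finger repressor shared with blood lineages, had 0 to 3 reads in each control and Hdac1-deficient library, 6 reads in all per group, and no fold is given. At this depth no difference was detected in Alox5, nor in Gfi1b between control and Hdac1-deficient libraries (exact two-sided permutation p = 1.0, n = 4 per group).

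Scaled by the length of all annotated exons of a gene, the order of the control levels was Pou2f3 at 0.666 ± 0.0431, Trpm5 at 0.340 ± 0.0278, Avil at 0.207 ± 0.0484, Sh2d6 at 0.162 ± 0.0478, Ptgs1 at 0.0936 ± 0.0269, Dclk1 at 0.0686 ± 0.0208, Alox5 at 0.0421 ± 0.0228 and Gfi1b at 0.0273 ± 0.0316 CPM per kb. The libraries of Pou2f3 stood clear of those of Trpm5, and those of Trpm5 clear of Avil, whereas each later pair of neighbours overlapped. In Hdac1-deficient enteroids Avil stood above Trpm5 without overlap, at 0.386 ± 0.0346 against 0.319 ± 0.0229 CPM per kb. In Hdac2-deficient enteroids Trpm5, at 0.181 ± 0.0165 CPM per kb, came after Avil and Sh2d6 and overlapped Sh2d6. The level of Dclk1 per kb is set by a total exon length of 15296 bases over its transcripts, which no single transcript need carry.

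At these counts, sampling of reads was a large share of the spread. For 12 of the 23 sets of 4 libraries, 1 for each marker in each group where it was listed, the coefficient of variation of CPM was above that expected from the mean count alone, and for 2 it was more than 2 times as large. These were Pou2f3 in Hdac1-deficient enteroids, with 28.3% observed and 11.4% from counting, and Ptgs1 in Hdac1-deficient enteroids, with 56.7% and 25.2%. Trpm5 varied less than its counts alone would give in each group, with 8.17%, 7.18% and 9.13% observed in control, Hdac1-deficient and Hdac2-deficient enteroids.

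**Figure D2:**
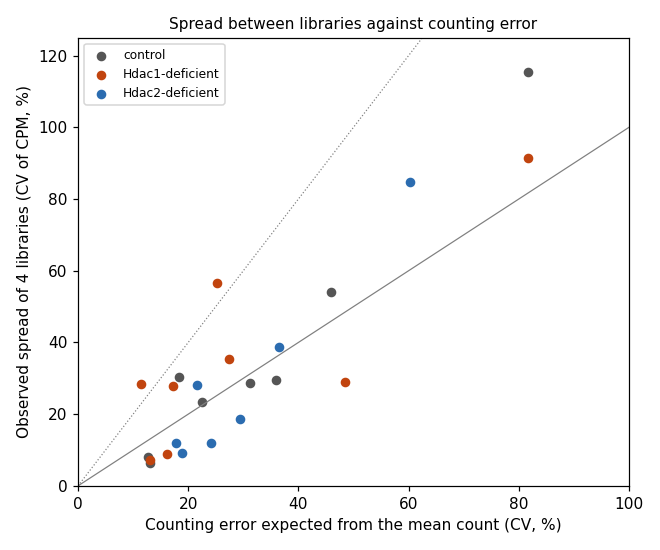
Coefficient of variation of CPM over the 4 libraries of a group (vertical axis, %) against that expected from counting error at the mean count (horizontal axis, %), with 1 point per marker and group. The solid line marks equality and the dotted line 2 times the counting error, above which 2 of the 23 points lie.

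Against control, 1 of the 6 markers tested in Hdac1-deficient enteroids was higher and 0 were lower at adjusted p ≤ 0.05, and 0 also changed by more than 2-fold. Over the 14246 genes tested, 32.7% were higher and 31.9% lower at that threshold, 10.6% passed it with more than 2-fold in either direction, and 30.1% of the 3162 genes with a mean log2 CPM between -1.5 and 1.5, the range that holds the better counted markers, were higher. At an unadjusted p of 0.05 or less, 3 of the 6 passed. The share of all genes at the unadjusted threshold was not counted. The adjusted threshold, which is stricter, was passed by 32.7% of all genes upward and 31.9% downward, so 3 of 6 was no excess over all genes. The 6 log2 fold changes had a median of 0.49, against -0.0040 over all genes tested, and 5 of the 6 were above 0. Sh2d6, at 0.74, is among them, although it was below the filter in the fit without the Hdac1-deficient libraries, where it was highest. The median and the 5 of 6 therefore depend in part on the filter. The Hdac1-deficient libraries were all above the control libraries for 1 marker, as for 28.1% of all genes tested, so the count of markers was no larger than the background.

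In Hdac2-deficient enteroids, 2 of the 5 markers tested were lower and 0 higher at adjusted p ≤ 0.05, and 0 changed by more than 2-fold. Over the 14007 genes tested, 30.9% were lower and 31.4% higher, 8.3% passed with more than 2-fold in either direction, and 19.1% of the 2957 genes in the same range of levels were lower. At an unadjusted p of 0.05 or less, 3 of the 5 passed. The share of all genes at the unadjusted threshold was not counted. The adjusted threshold, which is stricter, was passed by 30.9% of all genes downward and 31.4% upward, so 3 of 5 was no excess over all genes. The 5 log2 fold changes, without Sh2d6, had a median of -0.54, against -0.0036 over all genes tested. Pou2f3 and Trpm5 were the 2 markers whose Hdac2-deficient libraries were all below control, as were those of 28.4% of all genes tested.

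The direct comparison of the mutants used the same mutant libraries as the comparisons with control, so its values are not independent of those. Of the 6 markers tested, 4 were higher in Hdac1- than in Hdac2-deficient enteroids and 0 lower at adjusted p ≤ 0.05, and 1 of the 4 differed by more than 2-fold. Over the 14510 genes tested, 22.3% were higher and 23.7% lower, 5.62% passed with more than 2-fold in either direction, and 17.7% of the 3385 genes in the same range of levels were higher. For the 4 markers, all Hdac1-deficient libraries were above all Hdac2-deficient libraries, a pattern found for 19.5% of all genes tested. The median over the 6 was 0.64, against 0.0054 over all genes tested. Sh2d6, which was below the filter in the fit without the Hdac1-deficient libraries, is among the 6.

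The values that follow are Hdac1-deficient minus Hdac2-deficient. Pou2f3 differed by 1.01 on the log2 scale between the mutants (standard error 0.19, adjusted p = 8.9e-05), a 2.01-fold difference with a 95% interval from 1.54 to 2.64. It lay so near the limit of 2-fold that the call was lost without Hdac1-deficient replicate 1, 2 or 3 or Hdac2-deficient replicate 1 or 3, with values from 0.90 to 1.19 over the 12 libraries left out in turn and an adjusted p of at most 0.00073. Trpm5 differed by 0.81 on the log2 scale (standard error 0.16, adjusted p = 0.00015), which stayed between 0.77 and 0.87. Dclk1 differed by 0.71 on the log2 scale (standard error 0.25, adjusted p = 0.025). Its call was lost without Hdac1-deficient replicate 1 (0.58, adjusted p = 0.090) or 2 (0.61, adjusted p = 0.077) and without Hdac2-deficient replicate 1 (0.67, adjusted p = 0.060) or 3 (0.66, adjusted p = 0.058).

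Avil differed by 0.57 on the log2 scale between the mutants (standard error 0.22, adjusted p = 0.033). This call was lost with DESeq2 (adjusted p = 0.064), and without Hdac1-deficient replicate 3 (0.51, adjusted p = 0.092) or Hdac2-deficient replicate 1 (0.53, adjusted p = 0.079) or 4 (0.42, adjusted p = 0.13). Sh2d6 and Ptgs1 had log2 fold changes of 0.55 and 0.20, with 95% intervals from -0.18 to 1.29 and from -0.52 to 0.91, which leave room for differences of more than 2-fold in Sh2d6 and for either direction in Ptgs1. Alox5 was below the filter (exact two-sided permutation p = 0.6, n = 4 per group).

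**Figure D3:**
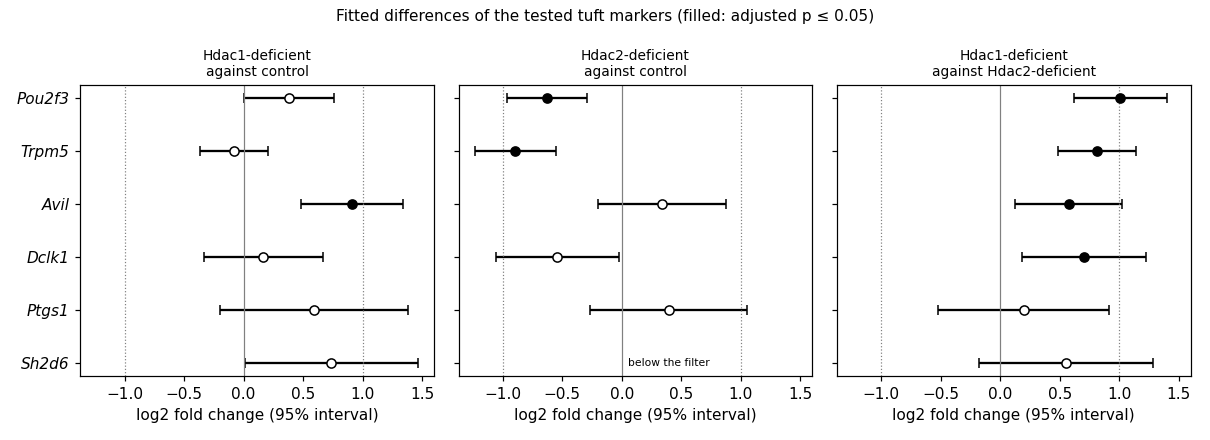
Log2 fold change (horizontal axes) with its 95% interval for the 6 tested tuft markers, in Hdac1-deficient against control, Hdac2-deficient against control and Hdac1- against Hdac2-deficient enteroids. Filled points passed an adjusted p of 0.05 and dotted lines mark 2-fold. Avil is filled on the left, Pou2f3 and Trpm5 in the middle and 4 markers on the right, and Sh2d6 was below the filter in the middle panel.

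Summed over the 7 markers listed in both tables, the level was 6.37 to 7.18 CPM in the control libraries, 6.60 to 9.12 CPM in the Hdac1-deficient libraries and 4.69 to 5.39 CPM in the Hdac2-deficient libraries. The Hdac2-deficient libraries lay below the other 8. Hdac1-deficient replicate 4, with 6.60 CPM, fell within the control range and the other 3 Hdac1-deficient libraries, from 8.75 CPM, above it. The sum is weighted to the markers with the highest levels. In control these were Pou2f3 and Trpm5, with means of 2.06 and 2.18 CPM, against 1.31 and 1.16 CPM in Hdac2-deficient enteroids. Mean Dclk1 and Alox5 were also lower there. Mean Avil, Ptgs1 and Sh2d6 were higher there, at 0.883, 0.477 and 0.317 CPM against 0.703, 0.364 and 0.274 CPM in control. The sum therefore does not describe the 7 markers alike, and no test was made on it.

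Blood cells share several tuft genes, such as Alox5, Gfi1b and Ptgs1, so their markers were looked up as well. Of 7 leukocyte markers, 2 were listed, Itgam and Csf1r, while Cd3e, Cd79a, Cpa3, Mcpt1 and Fcer1a, which mark T cells, B cells and mast cells, were not listed. The summed level of the 2 was 1.04 to 1.61 CPM in the control libraries, 2.27 to 3.26 CPM in the Hdac1-deficient libraries and 2.39 to 3.48 CPM in the Hdac2-deficient libraries. The 2 did not go together, since mean Itgam was 0.835, 2.02 and 2.68 CPM in control, Hdac1-deficient and Hdac2-deficient enteroids, and mean Csf1r 0.412, 0.729 and 0.146 CPM, the last with 1 to 5 reads per library. Ptprc, the pan-leukocyte antigen that some tuft cells also express, had at most 4 reads in any library. Of 5 mesenchymal and endothelial markers, 3 were listed, with summed levels of 0.268 to 0.424, 0.488 to 0.583 and 0.442 to 0.586 CPM. Their part in the marker values was not tested.

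Beyond the 9 markers, 58 further genes of the tuft cell programme were examined by role, of which 46 were listed. At adjusted p ≤ 0.05, 12 of the 33 tested were higher and 11 lower in Hdac1-deficient enteroids, 10 of 32 higher and 9 lower in Hdac2-deficient enteroids, and 10 of 33 higher and 9 lower in Hdac1- against Hdac2-deficient enteroids, beside the shares of all genes given above. The median log2 fold changes were 0.02, -0.08 and 0.11. Of the 33 tested, 16 were counted above the level of the highest marker (2.00 CPM, the mean over the 12 libraries), and which cells they were read from cannot be told in bulk libraries. A split at that level was made after the values were seen. At or below it, 6 of 17 were higher and 2 lower in Hdac1-deficient enteroids, and 3 of 16 higher and 2 lower in Hdac2-deficient enteroids. Between the mutants, 6 of 17 were higher and 1 lower. Above it, 6 of 16 were higher and 9 lower, 7 higher and 7 lower, and 4 higher and 8 lower in the same order. Of all genes in the range of levels given above, 30.1% were higher with Hdac1 deleted. In that range, 19.1% were lower with Hdac2 deleted and 17.7% higher between the mutants.

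Among the taste-type signalling genes, 5 of 11 were listed and 2 tested. The sweet and umami receptor subunit Tas1r3 rose from 0.601 CPM in control to 0.945 and 0.973 CPM in Hdac1- and Hdac2-deficient enteroids (log2 fold changes 0.66 and 0.68, adjusted p = 0.025 in both). Itpr3, the calcium release channel upstream of Trpm5 that many epithelial cells use, fell by 0.38 and 0.19 on the log2 scale (adjusted p = 0.00013 and 0.036). Plcb2, the phospholipase between them, had 4 to 7 reads in control, 2 to 3 in Hdac1-deficient and 0 to 2 in Hdac2-deficient libraries and was below the filter.

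Of the 7 eicosanoid genes, 6 were tested and 2 rose and 2 fell in Hdac1-deficient enteroids, while 3 rose and 1 fell in Hdac2-deficient enteroids, beside 32.7% and 31.9% of all genes with Hdac1 deleted and 31.4% and 30.9% with Hdac2 deleted. Ptgs2, the inducible cyclooxygenase, rose from 0.412 CPM in control to 1.01 and 1.02 CPM (log2 fold changes 1.34 and 1.36, adjusted p = 0.0014 and 0.00044), where its constitutive relative Ptgs1 had not passed the test. Ptges, which makes prostaglandin E, fell by 1.40 on the log2 scale in Hdac1-deficient enteroids (adjusted p = 0.0017) and rose by 0.67 in Hdac2-deficient enteroids (adjusted p = 0.032). Its difference between the mutants was -2.08 (adjusted p = 5.5e-06). Ptges rests on few reads, with 10 to 22 per control, 5 to 9 per Hdac1-deficient and 15 to 24 per Hdac2-deficient library. Pla2g4a, which frees arachidonic acid from membranes, fell by 0.97 and 0.52 on the log2 scale (adjusted p = 4.3e-14 and 3.2e-10).

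Of the 7 transcription regulators, 5 were tested. At adjusted p ≤ 0.05, 1 rose and 3 fell with Hdac1 deleted, and 1 rose and 3 fell with Hdac2 deleted. Of all genes tested, 32.7% rose and 31.9% fell in the former and 31.4% rose and 30.9% fell in the latter. Gm684 and 1810046K07Rik, both on chromosome 9 as Pou2f3 is, are the mouse genes for small proteins known as coactivators of Pou2f3 (Pou2af3 and Pou2af2). Gm684 was counted at 10.9, 10.4, 11.7 and 11.9 CPM in the control libraries, 3.75, 3.92, 3.77 and 3.30 CPM in the Hdac1-deficient libraries and 3.32, 2.27, 1.84 and 2.52 CPM in the Hdac2-deficient libraries. Both mutants lay far below control, by a log2 fold change of -1.59 for Hdac1 (standard error 0.09, adjusted p = 3.5e-12) and -2.14 for Hdac2 (standard error 0.12, adjusted p = 1.5e-12). Its difference between the mutants was 0.55 (adjusted p = 0.0015), of the same sign as that of Pou2f3.

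1810046K07Rik was at 1.91, 1.73, 1.62 and 1.46 CPM in the control libraries, 2.85, 2.98, 2.52 and 2.72 CPM in the Hdac1-deficient libraries and 2.18, 1.60, 1.69 and 2.21 CPM in the Hdac2-deficient libraries. All Hdac1-deficient libraries were above the other 8. It rose in Hdac1-deficient enteroids by 0.72 on the log2 scale (standard error 0.14, adjusted p = 0.00011), and the value in Hdac2-deficient enteroids was 0.20 (standard error 0.17, adjusted p = 0.30). The 2 putative coactivators thus moved in opposite directions in Hdac1-deficient enteroids. Spib, an ETS-family factor of tuft and lymphoid cells, fell by 0.87 on the log2 scale with Hdac2 deleted (adjusted p = 0.016), and its value with Hdac1 deleted was -0.27 (adjusted p = 0.35). It had 16 to 29 reads per control library and 7 to 17 per Hdac2-deficient library. Hmx2 and Hmx3, homeobox genes of tuft cells, had 2 to 5 reads in control, 1 to 6 in Hdac1-deficient and 0 to 3 in Hdac2-deficient libraries, and were below the filter.

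**Figure D4:**
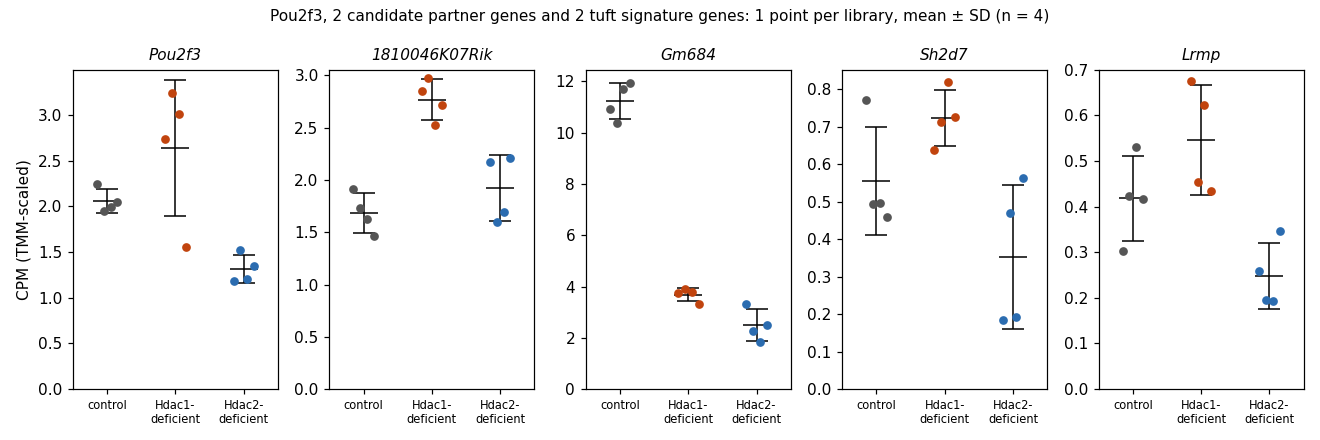
Level in CPM (vertical axes, starting at 0 and set separately for each gene) of Pou2f3, 1810046K07Rik, Gm684, Sh2d7 and Lrmp in each library of the 3 groups, with bars for the mean ± SD (n = 4). Gm684 is below all control points in both mutants, and 1810046K07Rik is above them in Hdac1-deficient enteroids.

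Of the 7 genes of the type 2 immune circuit that acts on tuft cells, 4 were tested. At adjusted p ≤ 0.05, 1 rose and 2 fell with Hdac1 deleted, and 3 rose and 1 fell with Hdac2 deleted. Of all genes tested, 32.7% rose and 31.9% fell in the former and 31.4% rose and 30.9% fell in the latter. Il17rb, a chain of the receptor for Il25, rose from 3.16 ± 0.295 CPM in control to 4.13 ± 0.456 and 6.49 ± 0.745 CPM, a log2 fold change of 0.40 for Hdac1 and 1.05 for Hdac2 (adjusted p = 0.0049 and 4.9e-08), with a difference between the mutants of -0.65 (adjusted p = 1.6e-05). Il4ra, a chain of the receptors for Il4 and Il13, had a value of 0.02 on that scale with Hdac1 deleted (adjusted p = 0.73) and rose by 0.47 in Hdac2-deficient enteroids (adjusted p = 2.7e-08). In Hdac2-deficient enteroids Il17rb and Il4ra were higher while Pou2f3 and Trpm5 were lower. Stat6, of the same list, had a log2 fold change of -0.08 there (adjusted p = 0.013).

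Of the other 26 tuft signature genes, 16 were tested in Hdac1-deficient enteroids, where 7 rose and 3 fell, and 15 in Hdac2-deficient enteroids, where 2 rose and 3 fell. Of all genes tested, 32.7% rose and 31.9% fell in the former and 31.4% rose and 30.9% fell in the latter. Trim38, a ubiquitin ligase of innate immunity, rose from 5.60 ± 0.515 CPM to 27.3 ± 1.97 CPM in Hdac1-deficient enteroids (log2 fold change 2.30, adjusted p = 1.1e-15), and its log2 fold change in Hdac2-deficient enteroids was 0.03 (adjusted p = 0.83). Rgs2, a regulator of G-protein signalling, rose by 1.24 and 1.29 (adjusted p = 3.1e-07 and 4.5e-07). Pik3r5, a subunit of a phosphoinositide kinase, fell by 1.35 on the log2 scale in Hdac2-deficient enteroids (adjusted p = 0.00086). It had 22 to 37 reads per control library and 5 to 19 per Hdac2-deficient library.

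Between the mutants, 4 of the 33 further genes tested were called at more than 2-fold higher in Hdac1-deficient enteroids, namely Trim38, Pik3r5, Lrmp and Sh2d7, and Ptges was called lower, beside 5.62% of all genes called in either direction. Lrmp and Sh2d7 were singled out after their values were seen. Sh2d7, an SH2-domain relative of Sh2d6, was at 0.724 ± 0.0745 CPM in the Hdac1-deficient libraries and 0.353 ± 0.193 CPM in the Hdac2-deficient libraries (log2 fold change 1.03, adjusted p = 0.0092), and all 4 libraries of the former were above the latter. Lrmp, an endoplasmic reticulum protein of taste and tuft cells, was at 0.547 ± 0.120 and 0.249 ± 0.0722 CPM (log2 fold change 1.12, adjusted p = 0.0069). It was below the filter in the fit of Hdac2-deficient against control libraries. Lrmp thus entered the fit between the mutants with the Hdac1-deficient libraries, where it was highest, so its call depends in part on the filter. Sh2d7 had 4 to 13 and Lrmp 4 to 8 reads per Hdac2-deficient library.

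**Figure D5:**
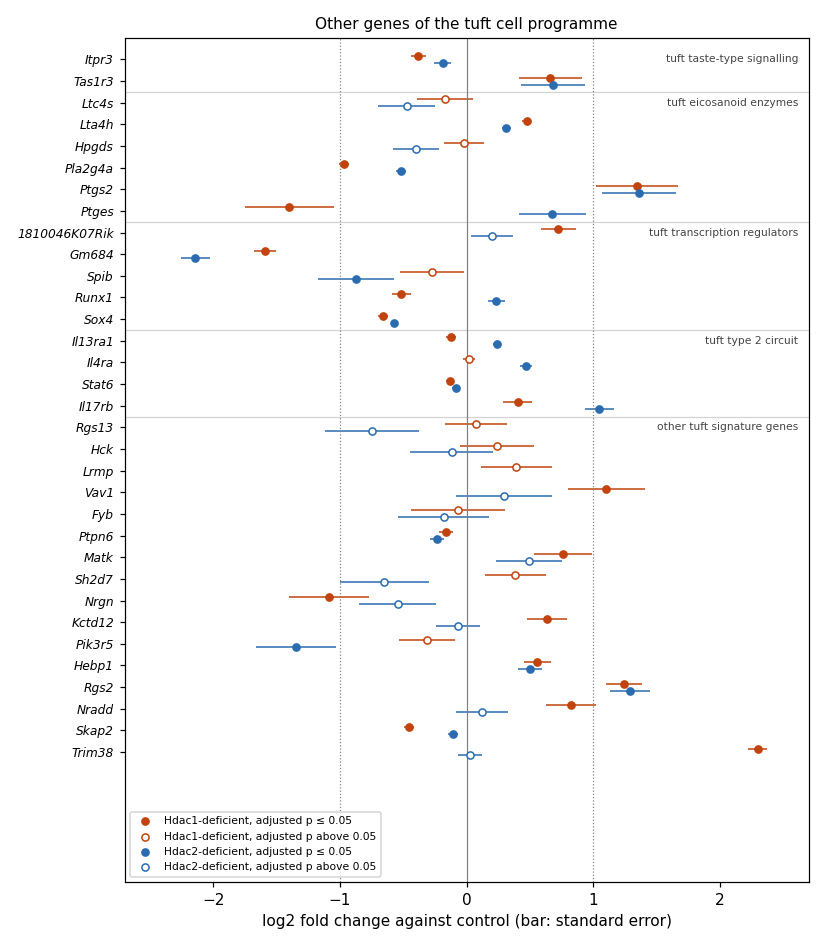
Log2 fold change against control (horizontal axis, bars for the standard error) of the tested genes of the wider tuft cell lists in Hdac1-deficient and Hdac2-deficient enteroids, grouped by role, with filled points for adjusted p ≤ 0.05. Points lie on both sides of 0 in each list, with Gm684 at -1.59 and -2.14 and Trim38 at 2.30 in Hdac1-deficient enteroids at the extremes.

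The genes whose log2 CPM followed Pou2f3 most closely over the 12 libraries, among 12387 genes, were Dach1 (Pearson r = 0.955), Ctdsp1, Mettl23, Polr3f and Elf2 (r = 0.903). For Dclk1 they were E2f8 (r = 0.963), Ctr9, Dnmt3a, Dcp2 and Urb2 (r = 0.914). Of the markers, only Pou2f3 and Trpm5 reached the mean of at least 1 CPM asked of compared genes, so the others could not appear here. Trpm5 correlated with Pou2f3 at r = 0.753 and with Dclk1 at r = 0.658, and Pou2f3 with Dclk1 at r = 0.713. After the group means were removed, these 3 values were 0.069, 0.210 and 0.372, so they largely restate the differences between groups. Other pairs of markers were lower, down to r = -0.436 for Alox5 and Sh2d6 over all libraries. These are descriptions of 12 libraries in 3 groups, taken as the highest of many values.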

How the data were processed

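The authors sequenced poly(A) RNA of 12 enteroid libraries as paired reads of 100 nucleotides and aligned them to GRCm38 with STAR (version 2.4.0f1 in the submitters' processing notes). The program and strand setting used for counting are not given in the sources used here. The deposited counts are raw reads per gene, in 1 table per mutant with the same 4 control libraries, and the lowest sum of a gene's counts over the 8 libraries of a table is 10 (18676 genes for Hdac1, 18225 for Hdac2, 17972 in both). The authors also deposited normalized counts, log fold changes, log CPM and p-values of their own comparisons, which were not used. Groups and replicate numbers come from the sample labels.

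Counts were tested in edgeR (4.0.16, R 4.3.3) with quasi-likelihood F tests, robust dispersions, TMM normalization (factors 0.9799 to 1.0222), the filterByExpr filter and Benjamini-Hochberg adjustment over all tested genes. Fits against control used the 8 libraries of that table, and the fit for the difference between the mutants used all 12 over genes in both tables. A call needed an adjusted p of at most 0.05 and more than 2-fold, and the adjusted p alone is also given. The standard error is the log2 fold change divided by the square root of F. Markers below the filter had an exact two-sided permutation test on CPM. The common biological coefficient of variation was 0.0425, 0.0384 and 0.0394 in the 3 fits. CPM use the total over genes in both tables times the TMM factor. Scripts were tested on simulated counts. The markers and gene lists were chosen with earlier results of these data known. Named genes are the markers, up to 3 called or tested genes per further list by size of change, and the 5 genes most like Pou2f3 and Dclk1 by Pearson r of log2 CPM (prior count 2, mean of at least 1 CPM), while Plcb2, Hmx2, Hmx3, Lrmp and Sh2d7 were named after their values were seen. Exon lengths and overlaps come from GENCODE M21. Alternatives were DESeq2 (1.42.0), relative log expression factors, library size alone, no filter, a block for the replicate number, a minimum mean of 10 counts, other sets of libraries in the fit, and each library left out in turn. A further leukocyte gene is not reported here.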

Additional observations from a re-analysis of the deposited data

Results flagged for a closer look

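In Hdac2-deficient enteroids, Alox5 had 1 library apart from the others. Replicate 4, with 6 reads against 1 or 2, lay at a gap to its nearest neighbour of 0.860 of the range of the 4 CPM values, over Dixon's 95% limit for 4 libraries. Of 23 sets of 4 libraries examined, 1 was over the limit, and chance passes about 1 in 20.

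For 4 of the 6 markers tested, the fitted difference between Hdac1- and Hdac2-deficient enteroids passed edgeR's quasi-likelihood test in the 12-library fit. Of all genes tested, 22.3% were higher in Hdac1- than in Hdac2-deficient enteroids and 23.7% lower at the same threshold. The fitted difference is also that between the log2 fold changes against the shared control libraries. It was 1.01 for Pou2f3, 0.81 for Trpm5, 0.71 for Dclk1 and 0.57 for Avil on the log2 scale. For Pou2f3 the log2 fold changes against control were 0.38 and -0.63, and for Trpm5 -0.08 and -0.90. For Dclk1 they were 0.17 and -0.54, and for Avil 0.91 and 0.33. All 4 Hdac1-deficient libraries were higher than all 4 Hdac2-deficient libraries for each of these genes, as for 19.5% of all genes tested.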

How the results depend on the processing

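With no limit on the fold change, the markers called numbered 1 for Hdac1, 2 for Hdac2 and 4 between the mutants, against 0, 0 and 1 with the limit. With each library left out in turn, the markers at an adjusted p of at most 0.05 numbered 1 to 2, 2 to 3 and 2 to 4, and those called at more than 2-fold 0 to 1, 0 and 0 to 1. With no filter on low counts, 8 instead of 5 genes of the wider tuft lists were called in Hdac2-deficient enteroids. Ptgs1 between the mutants was 0.20, and ran from -0.19 (without Hdac1-deficient replicate 1, adjusted p = 0.70) to 0.46 with each library left out. Over the markers' fitted values, 264 alternative values kept direction and side of the threshold, 5 newly passed it, 8 no longer passed it and 1 changed sign. The causes were not tested. Whether the replicate numbers pair the libraries is not known. Deviations from the group means correlated at -0.050 to 0.094 for same-numbered libraries and at -0.095 to 0.131 for differently numbered ones. With the replicate block, the markers at an adjusted p of at most 0.05 numbered 1, 2 and 4, as without it. Depth limits Alox5, Gfi1b, Sh2d6 and Ptgs1, which had at most 26 reads in any library.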
